A study of Homo sapiens with 6 samples.

Results

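Genes that copy the genome and supply its nucleotide building blocks were followed in MDA-MB-231 cells, a triple-negative human breast cancer line, after CTI-2. The set was chosen by symbol from a fixed list of 45 genes. Of these, 44 had a row among the 16362 genes of the count table, and UHRF1 entered the promoter counts only. Of the 44, 40 had enough counts to be tested and 4 (GINS1, GINS4, RFC2 and CCNE1) fell below the filter on low counts. There were 3 control libraries, which received no agent per the labels, and 3 libraries from cells given CTI-2 for 24 h. Each library was made from total RNA by reverse transcription and PCR and read on the Oxford Nanopore platform. CTI-2 is known here by its code name only, and the sources used here do not give its dose or any vehicle of the controls. The labels do not say whether replicates were separate cultures, and p-values then measure only the spread between these libraries, which may be technical.

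A replication origin is licensed in G1 when the origin recognition complex, with CDC6 and CDT1, loads the ring-shaped MCM2 to MCM7 helicase onto DNA. In S phase CDC45 and the GINS complex join the ring to make the active helicase, polymerases copy the strands behind it, and nucleosomes are rebuilt by the chromatin assembly factor CAF-1. Many of these genes are targets of E2F transcription factors and are transcribed most strongly around the G1/S boundary, which makes them common markers of proliferating tumour cells.

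Members of this set carry E2F-type letters in their promoters more often than most genes, so 5 promoters are shown before the expression values. They are those of CHAF1A and RRM2, the members called lower after CTI-2, and of MCM6, MCM3 and E2F1, members with such letters that were not called. Each line gives the 250 bases before the gene's first listed RefSeq start in GRCh38.p14, 5′ to 3′ on the gene's own strand. Capitals mark 4 E2F-type words (TTTCCCGC, TTTCGCGC, TTTGCCGC and TTTGGCGC) and the CCAAT box, the recognition letters of the factor NF-Y, on either strand. The windows are chr19:4402390-4402639 (plus strand), chr2:10122489-10122738 (plus), chr2:135876444-135876693 (minus), chr6:52284743-52284992 (minus) and chr20:33686386-33686635 (minus), in the order shown.
CHAF1A: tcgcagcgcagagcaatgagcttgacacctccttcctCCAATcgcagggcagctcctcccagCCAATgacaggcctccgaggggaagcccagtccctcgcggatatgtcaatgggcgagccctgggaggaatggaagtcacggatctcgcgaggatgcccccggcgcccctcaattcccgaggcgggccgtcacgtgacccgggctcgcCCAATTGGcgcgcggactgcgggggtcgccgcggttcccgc
RRM2: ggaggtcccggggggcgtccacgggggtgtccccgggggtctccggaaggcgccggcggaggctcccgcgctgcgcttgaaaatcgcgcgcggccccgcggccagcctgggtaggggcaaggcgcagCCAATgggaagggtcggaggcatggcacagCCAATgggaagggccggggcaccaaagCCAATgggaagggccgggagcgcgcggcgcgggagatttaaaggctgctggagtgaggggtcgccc
MCM6: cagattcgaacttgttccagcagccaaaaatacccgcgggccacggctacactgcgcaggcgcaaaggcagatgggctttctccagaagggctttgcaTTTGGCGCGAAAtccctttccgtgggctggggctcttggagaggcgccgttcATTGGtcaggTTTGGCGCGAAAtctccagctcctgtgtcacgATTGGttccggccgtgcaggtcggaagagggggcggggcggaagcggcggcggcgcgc
MCM3: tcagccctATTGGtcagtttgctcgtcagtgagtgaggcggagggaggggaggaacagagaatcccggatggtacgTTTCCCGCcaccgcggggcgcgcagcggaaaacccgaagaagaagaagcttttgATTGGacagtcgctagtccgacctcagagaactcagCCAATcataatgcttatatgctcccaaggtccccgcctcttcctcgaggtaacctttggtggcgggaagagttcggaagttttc
E2F1: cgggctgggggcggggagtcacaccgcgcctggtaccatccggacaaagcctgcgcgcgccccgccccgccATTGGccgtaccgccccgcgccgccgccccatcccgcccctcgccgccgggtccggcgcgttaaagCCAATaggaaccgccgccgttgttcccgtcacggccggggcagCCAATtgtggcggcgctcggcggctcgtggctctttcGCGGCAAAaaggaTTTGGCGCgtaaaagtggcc

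Promoters were found by symbol for 39 members, UHRF1 among them, and not for MCM4, MCM5, GINS4, RPA2, RPA3 and CCNE2. An E2F-type word was present in 14 of the 39 (35.9%), against 2.79% of the 27305 genes with a promoter entry. CCAAT letters were present in 23 of 39 (59.0%), against 33.0% of all genes. MCM6 held 4 E2F-type matches, because the words TTTGGCGC and GCGCGAAA overlap in each of its 2 runs of capitals of this kind. E2F1 held 2, and MCM3 held 1. CHAF1A and RRM2 held none in this window but had 4 and 3 CCAAT matches; the last 2 of CHAF1A overlap. Among tested members, the 13 with an E2F-type word had a median log2 fold change of -0.05 after CTI-2, and the 22 without one had a median of -0.02. The 21 with CCAAT letters, both called members among them, had a median of -0.004, and the 14 without had a lower median of -0.16. These matches describe letters only and are not shown to be bound.

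Most replication genes differed little between the groups. In edgeR's quasi-likelihood test across all genes, 2 of 40 tested members passed an adjusted p of 0.05 (Benjamini-Hochberg), CHAF1A and RRM2, both lower after CTI-2, and none was higher. Over all 9848 tested genes 8.03% passed (3.39% higher and 4.64% lower). The members' median log2 fold change was -0.02 (CTI-2 minus control), and the median over all tested genes was -0.01. For 29 of the 38 members that did not pass, the 95% interval of the change lay inside 1.5-fold in either direction. For the other 9 (CDT1, GINS3, POLA2, POLD1, POLE, FEN1, LIG1, DUT and E2F1) the interval reached past 1.5-fold on the lower side, so a fall of that size was not excluded. The DUT interval, -3.33 to -0.71 on the log2 scale, lay wholly beyond a 1.5-fold fall, and those of POLA2 and POLE lay wholly below 0. These intervals are not adjusted for the number of genes tested. The 1.5-fold band is wider than either call, since CHAF1A and RRM2 each stood 1.36-fold higher in controls. An interval inside the band therefore does not by itself exclude a change of that size. At an unadjusted p under 0.05 there were 5 members, all lower, beside 23.9% of all tested genes. In bulk RNA, fewer cells in S phase and less transcript per cell cannot be told apart.

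**Figure D1:**
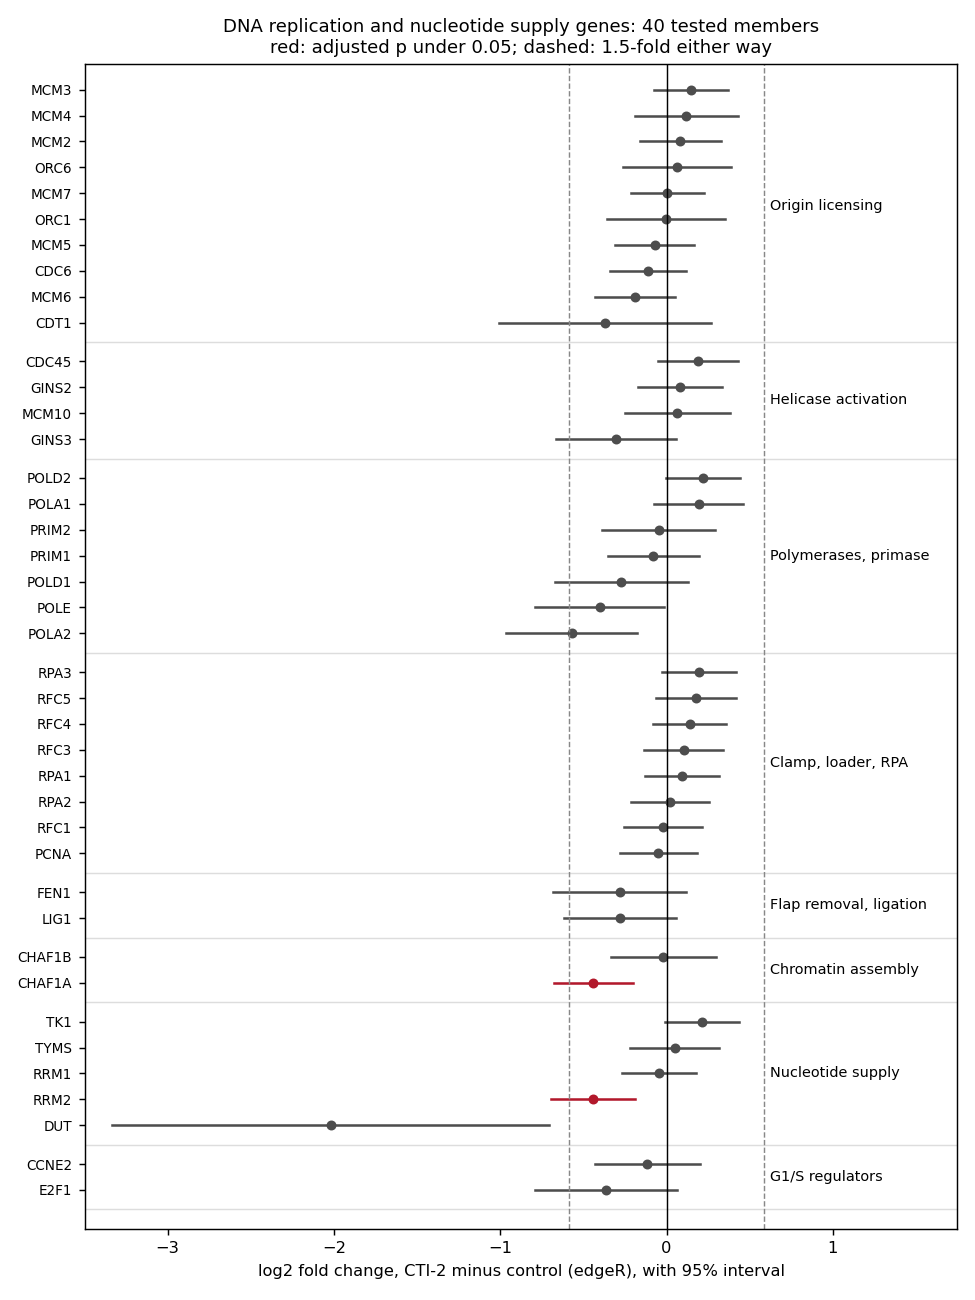
Log2 fold change (CTI-2 minus control) of the 40 tested members by role, each point with its 95% interval from edgeR. CHAF1A and RRM2 (red) passed an adjusted p of 0.05; DUT had the widest interval, from -3.33 to -0.71, and 29 of the grey intervals lie between the dashed lines at 1.5-fold.

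The library totals were 2208261 to 3929532 counts, at which 3 counts correspond to 0.763 to 1.36 CPM, the unit of level used below (counts per 1000000 of the same library). The members together took 0.409, 0.374 and 0.397% of all counts in the 3 controls (replicates 1 to 3) and 0.371, 0.371 and 0.393% after CTI-2. These shares overlapped, with means of 0.394% ± 0.018 and 0.378% ± 0.013 (SD, n = 3 per group). Without control 2 they did not overlap, and the difference of -0.015 percentage points became -0.025. Without DUT the means were 0.379% ± 0.017 and 0.375% ± 0.012. Of 10 genes commonly high in MDA-MB-231, all were tested, although FN1 and AXL had only 7 to 20 and 7 to 22 counts per library. VIM, EGFR and ZEB1 were also low, at 32 to 74, 35 to 77 and 35 to 59 counts. Of 7 luminal epithelial genes CDH1, ESR1 and GATA3 had at most 2 counts in any library. FOXA1 had 3 to 9, KRT19 2 to 16, ERBB2 11 to 42 and EPCAM 18 to 40. The leukocyte genes CD14, LYZ and CD68 and the red cell gene HBB had at most 1 count in any library, and HBA1, also of red cells, had 3 to 6.

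Origin licensing genes passed the test in no case. Of 10 tested, 5 had a positive and 5 a negative log2 fold change, with a median of 0.00. MCM3, a subunit of the helicase ring, stood at 326, 256 and 325 CPM in the controls and at 334, 290 and 340 CPM in the treated libraries, each in the order of replicates 1 to 3, which is kept below. Its groups overlapped, control 2 was the lowest of the 6 libraries, and the log2 fold change was 0.15 (SE 0.11, edgeR adjusted p = 0.440). MCM6, from the same ring, stood at 87.8, 76.1 and 88.1 CPM in controls and at 72.6, 67.4 and 72.5 CPM after CTI-2. The MCM6 groups did not overlap, but the change of -0.19 (SE 0.12) had an adjusted p of 0.336. MCM2, MCM4, MCM5 and MCM7, the remaining ring subunits, had log2 fold changes of 0.08, 0.12, -0.07 and 0.01, and their CPM overlapped between groups. The ring as a whole therefore ran from -0.19 to 0.15, and each of its 6 intervals lay inside 1.5-fold.

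The loaders ORC1, ORC6 and CDC6 were close to 0 as well. CDT1, of low count, had a log2 fold change of -0.37 and did not pass (edgeR adjusted p = 0.51). ORC1 and ORC6, subunits of the origin recognition complex, had log2 fold changes of -0.00 and 0.06. CDC6, the ATPase that helps load the ring, stood at 109, 95.9 and 110.2 CPM in controls and 94.8, 91.3 and 94.6 CPM after CTI-2. Its groups were apart by a narrow margin between control 2 and CTI-2 library 1, and the change was -0.11 (SE 0.11, edgeR adjusted p = 0.592). CDT1, the partner of CDC6 in loading, had only 15 to 25 counts in controls and 10 to 17 after CTI-2. CDT1 levels were 6.93, 6.36 and 6.38 CPM against 5.39, 4.72 and 4.53 CPM, again without overlap, and the 95% interval of the log2 change, -1.01 to 0.27, was too wide to separate no change from a fall of 1.5-fold.

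Of the 6 genes that turn the loaded ring into a working helicase, 4 were tested and none passed. CDC45, which joins the ring at the start of S phase, had CPM of 78.6, 75.8 and 94.0 in controls and 94.8, 86.3 and 91.0 after CTI-2 (log2 fold change 0.19, edgeR adjusted p = 0.340). MCM10, an activation factor, and GINS2 had changes of 0.07 and 0.08. GINS3, a further subunit of the same 4-part complex, had -0.30 (SE 0.18, adjusted p = 0.301), and CTI-2 library 3 was its lowest library at 17.2 CPM, against 27.2 to 35.1 CPM in the other 5. GINS1 and GINS4, at 2 to 8 and 1 to 8 counts a library, were below the filter. The changes of GINS1 and GINS4 cannot be placed beside those of GINS2 and GINS3 at these depths. Whether GINS3 differed from GINS2 in its response was not tested.

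Polymerase subunits spread more widely, from -0.57 to 0.22, and none of the 7 passed. POLA2, the accessory subunit of the polymerase alpha that starts each new strand with primase, stood at 25.4, 20.9 and 23.0 CPM in controls and at 15.9, 12.1 and 17.2 CPM after CTI-2. All 3 CTI-2 libraries lay below all 3 controls, and the log2 fold change of -0.57 (SE 0.19) came nearest to the threshold among the polymerase genes (edgeR adjusted p = 0.0625, DESeq2 adjusted p = 0.234). POLA2 overlaps AP000944.2, a counted gene on the same strand that had 6 to 12 counts per library, by 2012 exonic bases, so its count is uncertain. POLA1, the catalytic subunit of the same enzyme, stood at 55.5, 46.6 and 52.8 CPM and at 52.6, 55.3 and 63.4 CPM, with a change of 0.20 (adjusted p = 0.385). The primase subunits PRIM1 and PRIM2, which lay the RNA primers, had changes of -0.08 and -0.05. Whether POLA2 differed from POLA1 in its response was not tested.

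The leading and lagging strand polymerases gave no call. POLE, the catalytic subunit of polymerase epsilon, stood at 24.3, 21.4 and 31.9 CPM in controls and 19.0, 15.2 and 22.2 CPM after CTI-2. Its groups overlapped, with an unadjusted p of 0.0419 and an edgeR adjusted p of 0.188 for a log2 change of -0.40. POLD1, the catalytic subunit of polymerase delta, had a change of -0.27 (adjusted p = 0.423), and in controls it ranged from 15.8 CPM in control 2 to 26.2 CPM in control 1. POLD2, the accessory subunit of delta, had a change of 0.22 (SE 0.11, adjusted p = 0.220), the highest value of any member.

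The sliding clamp, its loader and the single-strand binding protein RPA had the narrowest range of any role with more than 4 tested genes, -0.05 to 0.20. PCNA, the clamp that tethers polymerases to DNA, stood at 239, 261 and 210 CPM in controls and 219, 229 and 218 CPM after CTI-2. The CTI-2 values fell within the range of the controls, and the log2 fold change was -0.05 (95% interval -0.28 to 0.18). The loader subunits RFC1, RFC3, RFC4 and RFC5 had changes of -0.02, 0.10, 0.14 and 0.18, and RFC2, at 2 to 10 counts a library, was below the filter. RPA1, RPA2 and RPA3, the subunits that coat unwound DNA, had changes of 0.09, 0.02 and 0.20. RPA3 passed, as higher, when control 2 was left out (log2 fold change 0.30, edgeR adjusted p = 0.0200). In that fit 16.1% of all tested genes passed.

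FEN1, the nuclease that trims flaps between lagging strand fragments, and LIG1, the ligase that seals them, both had a log2 fold change of -0.28. LIG1 stood at 27.0, 28.2 and 32.3 CPM in controls and 22.8, 23.6 and 23.1 CPM after CTI-2, without overlap, but did not pass (edgeR adjusted p = 0.308). FEN1 overlapped between groups, because CTI-2 library 2, at 22.9 CPM, lay within the range of the controls (adjusted p = 0.404).

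CHAF1A, the large subunit of CAF-1, fell. CHAF1A (ENSG00000167670, plus strand of chromosome 19, 4402662 to 4445018, GENCODE 29, GRCh38) stood at 104, 98.0 and 112 CPM in controls and at 81.5, 69.8 and 71.5 CPM after CTI-2. Every CTI-2 library was below every control. The log2 fold change was -0.44 (SE 0.12, edgeR adjusted p = 0.0160), a control level 1.36-fold that after CTI-2. CHAF1A no longer passed when CTI-2 library 2 (adjusted p = 0.123) or 3 (adjusted p = 0.0846) was left out, nor in DESeq2 (adjusted p = 0.0570). CHAF1A shares 20 exonic bases with UBXN6 on the opposite strand, which had 12 to 23 counts per library and a log2 change of -0.01.

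CHAF1B, the middle subunit of the same factor, stood at 37.0, 32.1 and 29.8 CPM in controls and 30.4, 31.3 and 33.1 CPM after CTI-2. Its groups overlapped, with a log2 fold change of -0.02 and a 95% interval of -0.33 to 0.30. The difference in response between CHAF1A and CHAF1B was not tested.

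Nucleotide supply held the second call and the largest difference of the set. RRM2, the small subunit of ribonucleotide reductase, which makes deoxynucleotides from ribonucleotides, stood at 96.7, 88.0 and 91.1 CPM in controls and 55.8, 71.1 and 69.7 CPM after CTI-2. RRM2 (ENSG00000171848, plus strand of chromosome 2, 10120698 to 10131419, GENCODE 29, GRCh38) fell by 0.44 on the log2 scale (SE 0.12, edgeR adjusted p = 0.0212), and its groups did not overlap. RRM2 no longer passed when replicate 1 of the controls (adjusted p = 0.0819) or of CTI-2 (adjusted p = 0.176) was left out, nor in DESeq2 (adjusted p = 0.0902). The gene shares 1077 exonic bases on its own strand with AC007240.1, a counted gene that also fell, from 26.6, 29.8 and 31.1 CPM to 14.6, 15.5 and 15.4 CPM (a change of -0.90, adjusted p = 0.00168), so reads of both genes cannot be separated with certainty. GENCODE 29 lists 3 pseudogenes named after RRM2, none with a row in the table.

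RRM1, the large subunit of the same enzyme, stood at 314, 265 and 321 CPM in controls and 288, 248 and 304 CPM after CTI-2. Its values overlapped, and the log2 fold change was -0.04 with a 95% interval of -0.27 to 0.18. The difference in response between RRM2 and RRM1 was not tested.

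DUT, the dUTPase that removes dUTP and makes the dUMP used by thymidylate synthase, stood at 207, 148 and 83.8 CPM in controls and at 20.9, 43.8 and 41.7 CPM after CTI-2. Its groups did not overlap, but controls 1 and 3 differed more from each other than control 3 did from CTI-2 library 2. The coefficient of variation of DUT among controls was 42.1%, the highest of the 40 tested members. The log2 fold change was -2.02 (SE 0.49, unadjusted p = 0.0120), which missed the threshold in edgeR (adjusted p = 0.0939) and limma-voom (adjusted p = 0.119). DESeq2, which called 6.39% of the genes it gave an adjusted p, called DUT and no other member (log2 fold change -1.97, adjusted p = 0.00441), and edgeR called DUT without control 3 (-2.31, adjusted p = 0.0214). DUT (ENSG00000128951, plus strand of chromosome 15, 48331011 to 48343373, GENCODE 29, GRCh38) overlaps no other counted gene, but GENCODE 29 lists 8 pseudogenes named after it, none with a row in the table. The sources used here do not say how reads shared with those copies were assigned.

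The thymidine enzymes gave no call. TYMS, thymidylate synthase, stood at 64.7, 73.5 and 68.1 CPM in controls and 58.3, 75.8 and 74.3 CPM after CTI-2 (log2 fold change 0.05, 95% interval -0.22 to 0.32). TYMS overlaps ENOSF1 on the opposite strand by 967 exonic bases. ENOSF1 fell from 149, 116 and 157 CPM to 91.6, 90.7 and 102 CPM (log2 fold change -0.51, edgeR adjusted p = 0.00500). The sources used here do not say whether counting used strand, so the TYMS count is uncertain. TK1, the salvage thymidine kinase of S phase cells, stood at 275, 279 and 257 CPM in controls and 295, 288 and 328 CPM after CTI-2. TK1 was the only member whose CTI-2 libraries all lay above the controls (log2 fold change 0.21, SE 0.11, edgeR adjusted p = 0.233), and it passed when control 2 was left out (0.29, adjusted p = 0.0278).

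**Figure D2:**
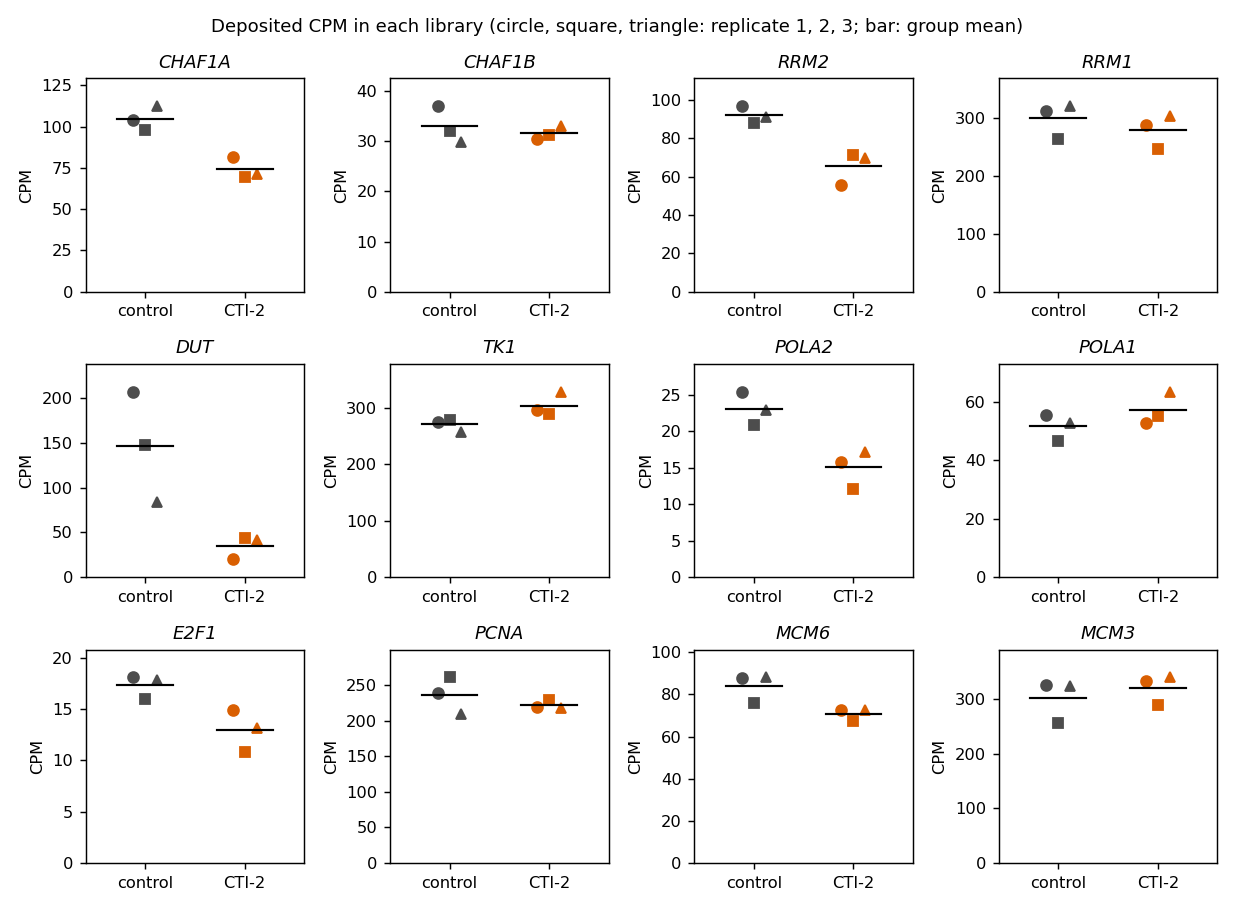
Deposited CPM of 12 members in each of the 6 libraries (symbols for replicates 1 to 3, bars for group means, axes from 0). CHAF1A, RRM2, DUT, POLA2, E2F1 and MCM6 have no overlap between groups and are lower after CTI-2, TK1 is higher without overlap, and DUT spreads from 83.8 to 207 CPM among controls.

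Among the regulators of the G1/S boundary, E2F1, the activator transcription factor of the pathway, stood at 18.1, 16.0 and 17.9 CPM in controls and 14.9, 10.8 and 13.1 CPM after CTI-2. The groups did not overlap, and the log2 fold change of -0.36 (SE 0.21) did not pass (edgeR adjusted p = 0.293) on 29 to 63 counts per library. CCNE2, a cyclin E gene that drives entry into S phase, had a change of -0.11 (adjusted p = 0.706). It overlaps INTS8 on the opposite strand by 1629 exonic bases. INTS8 fell by 0.85 on the log2 scale (adjusted p = 0.00342), so the CCNE2 count is uncertain. CCNE1, the other cyclin E gene, was below the filter at 5 to 12 counts a library.

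Across all tested members, 9 had CTI-2 values wholly below the controls and 1 wholly above. Over all tested genes 15.6% lay wholly below and 13.2% wholly above (28.8% in either direction). Of the 9, 6 overlap no other counted gene, 1 of them DUT. The 25 tested members that overlap no other counted gene included neither call.

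Members of lower level leaned to negative changes, as did lower genes in the whole table. Of the 20 members at or below the members' median level of 78.1 CPM, 14 had a negative log2 fold change (median -0.10), and of the 20 above it 8 did (median 0.05). All tested genes split at the same level gave 57.5% negative of 7710 (median -0.06) and 29.1% negative of 2138 (median 0.13). On each side of the split the members' median lay below that of all tested genes. Across the 40 members the rank correlation of log2 fold change with mean CPM was 0.54, and across 9218 tested genes with a transcript annotation it was 0.25. The median level of those 9218 genes was 24.5 CPM. These values share their libraries and are a description only; the part of level in the changes of single members was not tested.

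**Figure D3:**
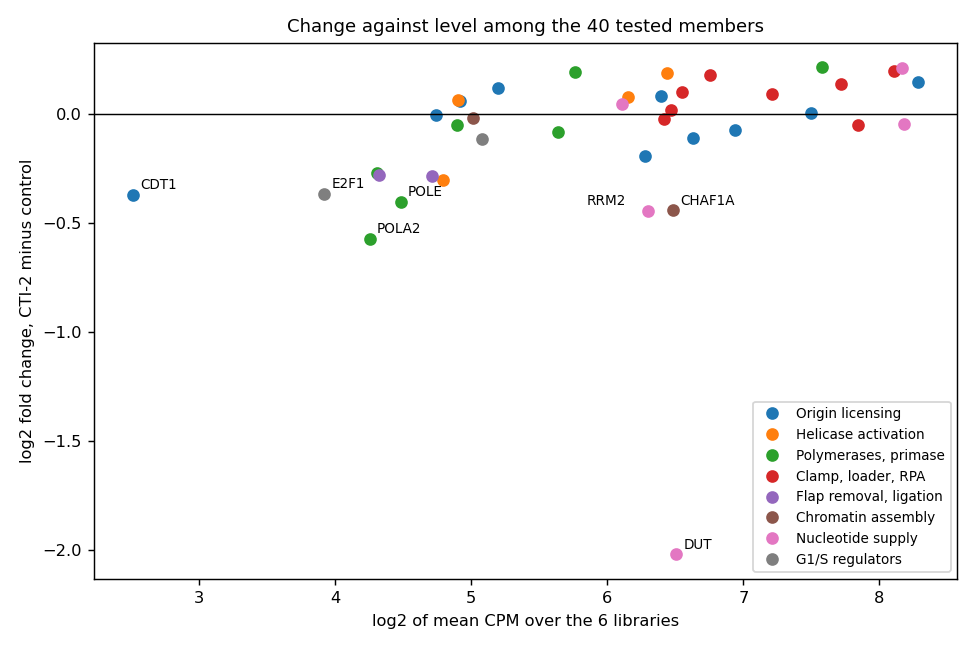
Log2 fold change (CTI-2 minus control) against log2 of mean CPM for the 40 tested members, coloured by role. Of the 20 members at or below 78.1 CPM, 14 lie below 0, among them CDT1, E2F1, POLA2 and POLE. Others of that level, such as ORC6, MCM10 and MCM4, lie above 0, and DUT stands apart at -2.02.

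Other genes of the pathway, 117 in 5 lists, gave 8 calls among 110 tested, 5 higher and 3 lower (7.27%, against 8.03% of all genes). Of 30 further fork and origin genes none passed (median log2 fold change 0.01), with 7 at an unadjusted p under 0.05. TOP2A, the topoisomerase that untangles copied DNA, had 0.23 (edgeR adjusted p = 0.191), and passed as higher with a transcript length trend taken out (0.30, adjusted p = 0.0351). None of 10 further chromatin genes passed (median -0.08), with 2 at an unadjusted p under 0.05. DESeq2 and limma-voom also called none in these 2 lists. Other settings called up to 3 fork genes, among them WDHD1, TIMELESS and TOP1 as lower with a GC trend taken out (edgeR adjusted p = 0.0419, 0.0468 and 0.0443), and 2 chromatin genes, SUPT16H and ASF1A, passed without control 2.

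Of 30 further nucleotide genes 3 rose and 1 fell (median 0.05). CAD, which carries out the opening steps of pyrimidine synthesis, fell from 65.5, 41.7 and 68.1 CPM to 37.1, 37.7 and 37.6 CPM (log2 fold change -0.56, edgeR adjusted p = 0.0157). Control 2 lay nearer to the CTI-2 libraries than to the other controls. UMPS, which completes the same pathway to UMP, rose from 198, 189 and 186 CPM to 257, 221 and 235 CPM (0.36, adjusted p = 0.0296). ADSL, an enzyme of purine synthesis, rose by 0.36. The calls of UMPS and ADSL were each lost without any library other than control 2, and that of CAD without control 1 or control 3 (largest adjusted p 0.192 for UMPS, 0.170 for ADSL and 0.0938 for CAD). ADSL shares 1344 exonic bases with another counted gene on its strand.

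Of 25 E2F and checkpoint genes 1 rose and 2 fell (median 0.04). ATR, the kinase that senses stalled forks, fell from 37.4, 28.8 and 45.5 CPM to 20.3, 14.5 and 13.6 CPM. Its log2 fold change was -1.11 ± 0.19 (SE, edgeR adjusted p = 0.000218), and it passed whichever library was left out (adjusted p up to 0.00163). E2F7, a repressor member of the E2F family, fell by 1.86 on 11 to 26 counts in controls and 2 to 6 after CTI-2 (adjusted p = 0.00987), and missed without control 1 (adjusted p = 0.145). CDKN1A, the p21 inhibitor of cyclin-dependent kinases, rose from 256, 242 and 287 CPM to 363, 327 and 305 CPM (0.40, adjusted p = 0.0179), and missed when replicate 1 of either group or CTI-2 library 2 was left out (adjusted p up to 0.160). CDK2, CCNA2 and RB1 had changes of 0.03, 0.07 and -0.49, none of which passed (adjusted p 0.433 to 0.946).

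Mitosis genes, read as a comparison for later cycle stages, had a median of 0.17 over 15 tested genes, 13 of them positive, and 1 passed. Over all tested genes above 78.1 CPM the median was 0.13, and the mitosis list was not matched for level. AURKA, a spindle kinase, rose by 0.37 (edgeR adjusted p = 0.0463), and missed in DESeq2 (adjusted p = 0.0895), in limma-voom and when any of 4 libraries was left out (adjusted p up to 0.335). MKI67, the proliferation antigen Ki-67, stood at 120, 109 and 139 CPM in controls and 126, 108 and 121 CPM after CTI-2 (log2 fold change 0.01).

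**Figure D4:**
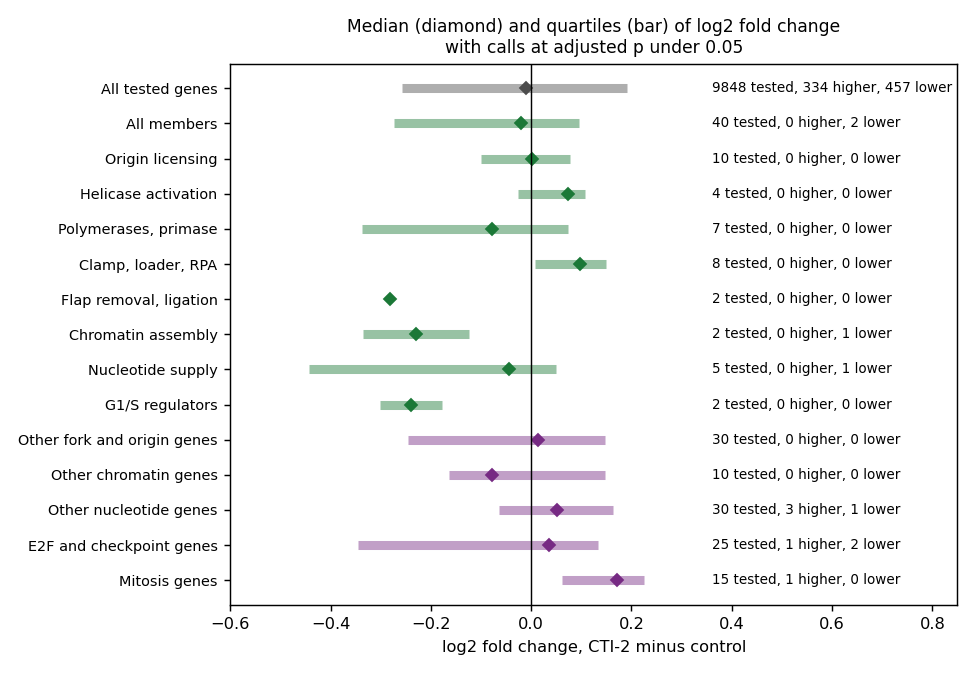
Median and quartiles of log2 fold change (CTI-2 minus control) for all tested genes, the members by role (green) and the other pathway lists (purple), with the number called at an adjusted p of 0.05. The members' median of -0.02 lies beside -0.01 for all tested genes, and the mitosis list's median is 0.17. The lists are not matched for level.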

How the data were processed

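The authors deposited, library by library, the number of reads counted on each gene, as raw counts. Their deposited CPM table holds the same counts scaled to 1000000 per library. Alignment used minimap2, per the submitters' processing notes. The sources used here do not give its version, the genome build, annotation, counter, strand use or filters. Libraries were grouped by their titles. Counts were filtered with filterByExpr (9848 genes kept), scaled by TMM and tested in edgeR 4.0.16 (glmQLFit with robust estimation, glmQLFTest; R 4.3.3), CTI-2 minus control, with Benjamini-Hochberg adjustment over all genes tested and a threshold of 0.05. Log2 fold changes and intervals come from this fit, so they include the TMM scaling that the CPM lack; an SE is the change over the root of its F. Alternatives used DESeq2 1.42.0 and limma 3.58.1. The fit was tested on simulated counts. Intervals include the estimated spread between libraries. The floor of 3 counts covers counting error only, since amplified cDNA reads carry no molecular identifiers.

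Members and lists were chosen with earlier results of these data known. All members were reported, with called genes of the other lists (up to 6 per list) and MKI67, CDK2, CCNA2, TOP2A, CDKN1A and RB1. Some genes of these lists are not reported here. Coordinates are from GENCODE 29 on GRCh38, 1-based, for genes whose span equals the table's length; promoters are RefSeq's. Beside the overlaps named in the results, CHAF1B, FEN1, GINS2, MCM2, MCM7, PRIM1, RFC4, RFC5, RPA1 and RPA3 overlap another counted gene. Libraries of one group differed by more than sampling noise. As chi-square over its degrees of freedom, pairs of controls gave 3.92 to 6.92 and pairs of CTI-2 libraries 1.78 to 2.40.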

Additional observations from a re-analysis of the deposited data

How the results depend on the processing

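Depth limited the 4 untested members and those of few counts, such as CDT1 and E2F1. The 2 member calls were kept, as CHAF1A and RRM2, with DESeq2's size factors, library totals, either other low-count filter, limma-voom, limma on log2(CPM + 1) or log2(CPM + 0.5), and when a lowess trend (span 0.3) on GC content or on length of transcripts was taken out of each library. DESeq2 called 1 member (DUT), 498 genes in all and 5 of the other pathway genes. An adjusted p of 0.01 left 0 members, 306 genes and 2 pathway genes, and a test against a 1.2-fold change (glmTreat) left 0, 190 and 2. Counting members that overlap no other counted gene, chosen after seeing the data, gave 0 calls. That count left out CHAF1A for 20 exonic bases shared with UBXN6 on the opposite strand. It left out RRM2 for 1077 exonic bases shared with AC007240.1 on its own strand. Leaving out 1 library gave 1 to 4 member calls, 400 to 1610 calls over all genes and 1 to 20 calls of other pathway genes, in each case the most without control 2. With the replicate number as a block, the number of all genes called was 942, among them 2 members and 10 other pathway genes. The block changed no member's call, and same-numbered libraries did not deviate together (correlations of deviations -0.05, 0.01 and -0.12). The difference in the members' share of counts, -0.015 percentage points, was -0.013 without the overlapping members, -0.025 without control 2 and -0.0044 without DUT (chosen after seeing the data).

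Genes near 0 changed sign without passing the threshold in any of these settings. With library totals MCM7, RPA2, MKI67 and CDK2 had log2 fold changes of -0.050, -0.032, -0.045 and -0.013. With limma on log2(CPM + 1) ORC6, MCM7, RPA2, MKI67 and CDK2 had -0.0028, -0.046, -0.030, -0.045 and -0.015, and on log2(CPM + 0.5) -0.0029, -0.046, -0.031, -0.045 and -0.016. With 20 counts in 3 libraries MCM7, RPA2 and MKI67 had -0.017, -0.0033 and -0.014. With the length trend removed ORC1, ORC6, RFC1, RPA2, CHAF1B and TYMS had 0.0014, -0.00072, 0.029, -0.043, 0.017 and -0.017, and with the GC trend removed RPA2 and MKI67 had -0.0072 and -0.018. ORC1 had 0.0021 without a filter, 0.015 in DESeq2 and 0.016 in limma-voom, and CHAF1B had 0.0069 in DESeq2. Over the fits that leave out 1 library the ranges that crossed 0 were -0.13 to 0.16 for ORC1, -0.045 to 0.13 for ORC6, -0.16 to 0.023 for MCM5, -0.031 to 0.055 for MCM7, -0.15 to 0.19 for PRIM2, -0.16 to 0.085 for PCNA, -0.054 to 0.0091 for RFC1, -0.018 to 0.051 for RPA2, -0.11 to 0.049 for CHAF1B, -0.11 to 0.044 for RRM1, -0.015 to 0.16 for TYMS, -0.043 to 0.081 for MKI67 and -0.0090 to 0.12 for CCNA2. The cause was not tested.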
